A study of Danio rerio with 6 samples.

Results

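The unannotated genes of zebrafish *prpf31*-/- tails are described here, that is, the gene models that the deposited count tables list under a running number and without an Ensembl identifier, on every sequence other than chromosome 16 and its alternate contigs. *prpf31* itself lies on chromosome 16, so the models placed on other chromosomes or their contigs are not neighbours of the mutated gene. For the models on unplaced scaffolds the chromosome is not known. They were chosen by identifier and position alone, and there were 4067 of them among the 36155 genes of the tables. A member is called here by its number, such as unannotated gene 250. The 2 groups were *prpf31*-/- embryos, a CRISPR/Cas9 knockout line, and their *prpf31*+/+ siblings, both of strain AB*, both from *prpf31*+/- parents and both at 36 hpf (hours post fertilization), with 3 libraries each. Each library held pooled tails with the AGM (aorta-gonad-mesonephros region) and the CHT (caudal hematopoietic tissue), the sites where blood stem cells arise and expand, and the heads had gone to genotyping. A tail also holds muscle, spinal cord, skin, notochord and vessels, so fewer cells of a type and less RNA per cell cannot be told apart.

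Prpf31 binds U4 snRNA and ties the U4/U6 particle to U5, forming the tri-snRNP that brings the catalytic snRNAs to an intron. Gene models without an Ensembl entry are usually built from the reads themselves, and they may be unlisted exons of known genes, noncoding transcripts, copies of mobile elements, or genes on sequence that the gene annotation did not cover. The last kind matters in GRCz11, the genome build of the files, because that assembly carries alternate contigs, second versions of chromosome stretches taken from another haplotype. A gene in such a stretch is present on the chromosome and again on the contig, and its reads are divided between both versions. How reads that fit both were handled is not given in the sources used here, so the division is uncertain for every such pair.

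Of the 4067 members, 2713 lay on 740 alternate contigs, 1125 on numbered chromosomes and 229 on 162 unplaced scaffolds. The tables listed 0 annotated genes on any alternate contig, so all counts on those contigs belonged to unannotated models. The 3 kinds were built differently. On alternate contigs the median summed exon length was 2462 bases, the median genomic span 13299 bases and 97.7% of models had an intron, that is, a span longer than the exon length. On chromosomes the median length was 1550 bases over a span of 4041 bases, and 79.4% had an intron. On scaffolds the median length was 902 bases, with an intron in 88.2%. Protein-coding genes off chromosome 16 had a median length of 2161 bases, a span of 13853 bases and an intron in 95.6%, near to the models on alternate contigs. A protein domain was listed for 2211 of the 2713 models on alternate contigs and for 381 of the 1354 elsewhere.

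The libraries held 21809870 to 23789933 counts. In *prpf31*-/- libraries, *prpf31* (ENSDARG00000095904, chromosome 16, 32082359 to 32090672) had 475, 576 and 535 counts, against 844, 850 and 854 in siblings. Its log2 fold change was -0.66 (SE 0.0842, adjusted p = 0.00104). Of the lists of cell type markers, muscle, notochord, endothelium, HSPC, epidermis and tail bud had 0 members past the threshold, with *col8a1a* of the notochord list at 0 in all libraries. The erythroid list fell in 2 of its 3 tested members, with summed levels of 965 to 1149 CPM (counts scaled to one library size, with TMM factors) in *prpf31*-/- and 1502 to 1808 CPM in siblings, and the myeloid list in 1 of 3, with 64.0 to 74.6 CPM in *prpf31*-/- and 83.6 to 96.7 CPM in siblings. The HSPC list was low, at 5.02 to 6.45 CPM in *prpf31*-/- and 4.95 to 6.15 CPM in siblings, so a change there could easily be missed. In the muscle list the annotated *mylpfa* was low too, with 23, 72 and 32 counts in *prpf31*-/-, against 29, 10 and 14 in siblings. The head, eye and brain list, 6 genes that the dissection should remove, summed to 14.8 to 17.1 CPM in *prpf31*-/- and 17.9 to 21.7 CPM in siblings. A yolk and liver list had 1 member higher and 1 lower, and a spinal cord list 1 lower. The part of these shifts in the values of the unannotated genes was not tested.

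As a class, the unannotated genes took about the same share of the RNA in both genotypes. They held 7.404%, 7.005% and 7.422% of the counts in the *prpf31*-/- libraries, against 6.853%, 7.233% and 7.161% in siblings. The means were 7.28% ± 0.236 in *prpf31*-/- and 7.08% ± 0.202 in siblings (SD, n = 3 each), and the groups overlapped. The models on alternate contigs held most of it, 6.03% ± 0.256 in *prpf31*-/- and 5.75% ± 0.205 in siblings (SD, n = 3 each). The models on chromosomes did not overlap between groups: they held 1.095% to 1.114% of the counts in *prpf31*-/-, against 1.183% to 1.202% in siblings. No test was made of these sums. Single abundant members weigh on them. On chromosome 3, gene 813 had 4989, 4431 and 5752 counts in *prpf31*-/-, against 8899, 10407 and 10799 in siblings. On chromosome 12, gene 162 had 3229, 2353 and 3406 counts in *prpf31*-/-, against 6846, 8839 and 8485 in siblings. In the test of single genes described below, 54 of 929 tested members on chromosomes rose (5.81%) and 50 fell (5.38%). Over all genes tested, 5.58% rose and 4.49% fell.

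Detection did not separate the genotypes either. At least 10 counts were found for 3419, 3507 and 3482 members in the *prpf31*-/- libraries, against 3482, 3433 and 3497 in siblings. That was 84.1% to 86.2% of the members, whereas 67.0% to 69.5% of the protein-coding genes off chromosome 16 reached 10 counts. In 3153 members every library did, in 311 no library did, and 65 had no count at all. The median level was 1.75 FPKM (fragments scaled by exon length and library size, the mean of the 6 libraries) for members and 1.22 FPKM for protein-coding genes. If the models were built from these reads, a model could arise only where reads were found. Both contrasts with protein-coding genes, which are listed whether or not they are expressed, would then be largely set in advance. Levels were far from even, with 1215 members under 1 FPKM and 357 at 10 FPKM or more.

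The 5 members with the highest FPKM were all on alternate contigs and carried domains of abundant tail and housekeeping proteins. Unannotated gene 3579 (alternate contig of chromosome 6, 39298931 to 39303596) carries a type II keratin head and intermediate filament domain, the structural protein of skin. It had 17273, 14494 and 17614 CPM in *prpf31*-/-, against 12522, 14104 and 15223 CPM in siblings (log2 fold change 0.24, SE 0.11, adjusted p = 0.214). The lowest *prpf31*-/- library lay within the sibling range. Unannotated gene 3154 (alternate contig of chromosome 3, EF-hand domain, with a span of 32727336 to 32817247 that takes in *mylpfa*, a fast muscle myosin light chain) averaged 2951 ± 861 CPM in *prpf31*-/- and 2475 ± 350.1 CPM in siblings (SD, n = 3 each). Genes 2810 and 2596 carry domains of the large ribosomal subunit, L16p/L10e and L32. Gene 2810 averaged 1580 CPM in *prpf31*-/- and 1550 CPM in siblings, and gene 2596 averaged 908 CPM in *prpf31*-/- and 871 CPM in siblings, with log2 fold changes of 0.03 and 0.06. Gene 3324, the contig version of the lipoprotein gene *apoa1a*, was the one of the 5 past the threshold, at 1239 ± 136 CPM in *prpf31*-/- and 952 ± 35.3 CPM in siblings (SD, n = 3 each). Its log2 fold change of 0.38 had an adjusted p of 0.028, which became 0.0956 without *prpf31*-/- replicate 3 and 0.12, 0.0792 and 0.0763 without sibling replicates 1, 2 and 3 in turn.

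Counts were compared with edgeR's quasi-likelihood test over all 21876 genes that passed its filter on low counts, with Benjamini-Hochberg adjusted p-values and a threshold of 0.05. Of the members, 3512 passed the filter and 555, with at most 107 counts in any library, did not. In *prpf31*-/- tails 177 members rose and 108 fell, or 8.12% of those tested. Over all genes tested, 10.1% were called, 5.58% higher and 4.49% lower, so the members' shares of 5.04% higher and 3.08% lower did not exceed the background. Over members the median log2 fold change was 0.02, and over all genes it was -0.00484. The called members that rose had log2 fold changes of 0.28 to 6.63 with a median of 1.03, and 92 of them reached 1. Those that fell reached -2.60 with a median of -0.84, and 42 of them reached -1. Counts higher and lower depended on single libraries: they were 97 and 43 without *prpf31*-/- replicate 3, 97 and 48 without sibling replicate 1, and 108 and 61 without sibling replicate 2.

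The call of a gene depends on its level, so the members were set against protein-coding genes off chromosome 16 within 10 bins of level. From the lowest bin to the highest, the called share of members went up from 3.69% to 21.3% and that of protein-coding genes from 2.81% to 17.3%. Weighted to the members' levels, 7.72% of protein-coding genes were called, 0.393 percentage points under the members. The members' excess was largest in the top bin, over 30.9 CPM, at 4.02 points, where 41 of 352 members rose and 34 fell. In the next bin down it was -2.81 points. Direction differed more than number: at like levels 3.72% of protein-coding genes rose and 3.998% fell, set beside 5.04% and 3.08% of members. The balance depended on the library factors, as 159 members rose and 130 fell with upper-quartile factors. It also differed by place. On alternate contigs 118 of 2400 were higher (4.92%) and 55 lower (2.29%), where 3.85% and 4.13% of protein-coding genes at like levels were. On chromosomes 54 of 929 were higher (5.81%) and 50 lower (5.38%), where 3.62% and 3.82% were.

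**Figure D1:**
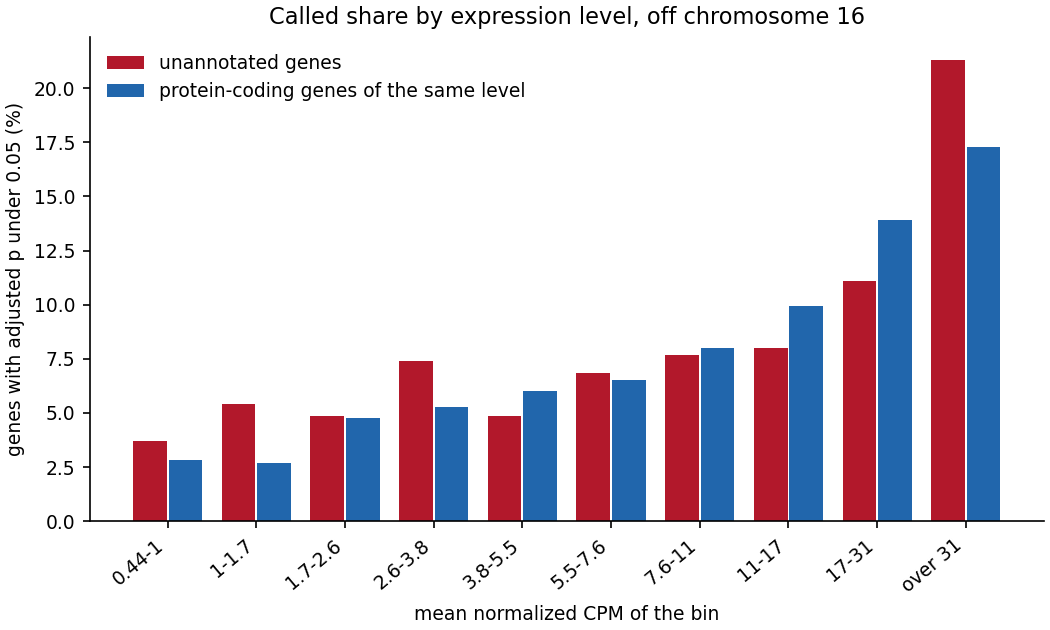
Share of genes past the threshold (y axis, percent) in 10 bins of mean normalized CPM (x axis, bounds of each bin), for unannotated genes and for protein-coding genes off chromosome 16. Both shares climb with level, to 21.3% and 17.3% in the top bin.

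The called share varied among the kinds of unannotated gene. On chromosomes 104 of 929 tested members were called, 54 higher and 50 lower, or 11.2%, and 7.44% of protein-coding genes at like levels. On alternate contigs 173 of 2400 were called, 118 higher and 55 lower, or 7.21%, where 7.98% was the share at like levels. On scaffolds 8 of 183 were called, or 4.37%. Models with a single exon had the larger share, 41 of 275 or 14.9%, against 244 of 3237 or 7.54% of those with an intron. The same order held away from the alternate contigs, where 35 of 232 single-exon models (15.1%) and 77 of 880 spliced models (8.75%) were called. Without *prpf31*-/- replicate 3 the shares were 6.71% of single-exon and 3.67% of spliced models. Members without a listed domain were called in 9.97% and those with one in 7.22%, where protein-coding genes at like levels were called in 6.88% and 8.13%. Length made little difference beyond level, as models of up to 1427 bases were called in 6.16% and those of 3090 bases or more in 9.60%, and protein-coding genes at those levels in 5.15% and 9.71%.

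Chromosome 4, whose long arm is known in zebrafish for its repeats and zinc finger genes, held more unannotated genes than any other chromosome, 114. Of the 87 tested, 8 rose and 10 fell, or 20.7%. Protein-coding genes on the same chromosome were called in 9.28%. Chromosome 11 had the highest share, with 2 of 29 higher and 6 lower, and chromosomes 15 and 22 had 0 of 30 and 0 of 42 called. With 22 to 87 tested members on a chromosome, these shares are loosely set.

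**Figure D2:**
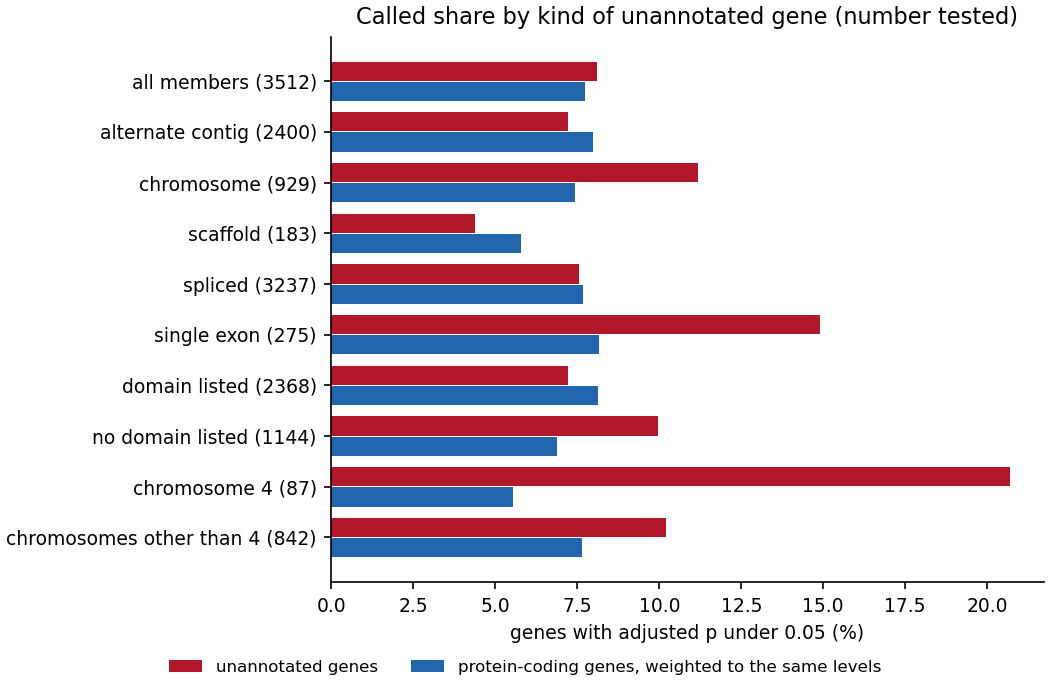
Share of tested genes past the threshold (x axis, percent) for each kind of unannotated gene, with the number tested in brackets, above the share of protein-coding genes off chromosome 16 weighted to the same levels. Single-exon models (14.9%) and those on chromosome 4 (20.7%) stand furthest above their protein-coding share.

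The largest rises were in models that were almost silent in siblings. Unannotated gene 250 (chromosome 14, 19880479 to 19882600, 1128 bases of exon, no domain listed) had 81, 61 and 89 counts in *prpf31*-/-, against 0, 0 and 2 in siblings. Unannotated gene 622 (chromosome 21, 8517324 to 8519830) had 72, 54 and 36 counts in *prpf31*-/-, against 0, 1 and 1 in siblings. Every *prpf31*-/- library lay far above every sibling library in both. Members entered the lists of largest rises and falls only if the groups did not overlap, so separation as such was set in advance. Scaled to the libraries' totals, the ratio was 112 for gene 250, with a 95% counting interval of 30.7 to 930.3, and 78.5 for gene 622, with an interval of 21.4 to 654.1, which cover counting error only. Both passed the filter on low counts only through the *prpf31*-/- libraries, so no p is given for them. Gene 250 was 273877 bases from the nearest annotated gene, *fmr1*, an RNA-binding regulator of translation whose own log2 fold change was 0.07 (adjusted p = 0.613). Gene 622 lay 4132 bases from *crb2a*, a cell polarity gene, with a log2 fold change of 0.65 (adjusted p = 0.088). Gene 622 was the only member with at least 10 counts in every library of one group and at most 1 in every library of the other.

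Next came models on alternate contigs. Unannotated gene 2888 (alternate contig of chromosome 24, 22512110 to 22515139) had 61, 15 and 92 counts in *prpf31*-/-, against 2, 5 and 1 in siblings (log2 fold change 4.35, SE 0.761). At its coordinates chromosome 24 holds *ctnnd2a*, a catenin of cell junctions listed on the opposite strand, at -1.13 (adjusted p = 0.0716). No annotated gene overlaps it there on the same strand. Unannotated gene 3767 (alternate contig of chromosome 7, 36850505 to 36853502) had 148, 159 and 230 counts in *prpf31*-/-, against 20, 14 and 5 in siblings (log2 fold change 3.79, SE 0.358). Neither has a listed domain. Groups that did not overlap were a condition of this list, and in gene 2888 the *prpf31*-/- libraries spread widely, at 2.54 ± 1.69 CPM (SD, n = 3). Genes 3376 and 3367 (alternate contigs of chromosome 5, 51188865 to 51198537 and 51169519 to 51185246) lie at the place of *snapc4*, the subunit of the factor SNAPc that binds snRNA gene promoters, and gene 3367 has Myb-like DNA-binding domains, the kind through which SNAPC4 binds DNA. Gene 3376 had 73, 136 and 201 counts in *prpf31*-/-, against 14, 1 and 18 in siblings. Gene 3367 had 202, 440 and 242 counts in *prpf31*-/-, against 38, 16 and 33 in siblings. Their log2 fold changes were 3.62 (SE 0.562) and 3.35 (SE 0.349, adjusted p = 0.000298), and that of the annotated *snapc4* was 4.53 (SE 0.434). Genes 2888, 3767 and 3376 and the annotated *snapc4* also passed the filter only through the *prpf31*-/- libraries, so no p is given for them.

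Of the 12 largest rises, 5 more are given here, with log2 fold changes of 2.78 to 3.03. Gene 4032, on an unplaced scaffold, has no listed domain and had 718, 1104 and 1200 counts in *prpf31*-/-, against 144, 121 and 106 in siblings. Genes 3666 and 3680, on 2 contigs of chromosome 6, both carry the GMP-PDE delta subunit domain, and gene 3680 had 302, 309 and 245 counts in *prpf31*-/-, against 51, 33 and 43 in siblings. The annotated *pde6d* nearby, the gene of that prenyl-binding subunit, had 0, 1 and 0 counts in *prpf31*-/- and 0 in each sibling library. Genes 51 and 937, on chromosomes 10 and 4, averaged 4.33 and 2.60 CPM in *prpf31*-/-, against 0.533 and 0.324 CPM in siblings. Gene 51 overlaps unannotated gene 52, a reverse transcriptase model that rose by 2.75 on the log2 scale, and because the library kit keeps no strand, their reads cannot be told apart where they overlap.

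**Figure D3:**
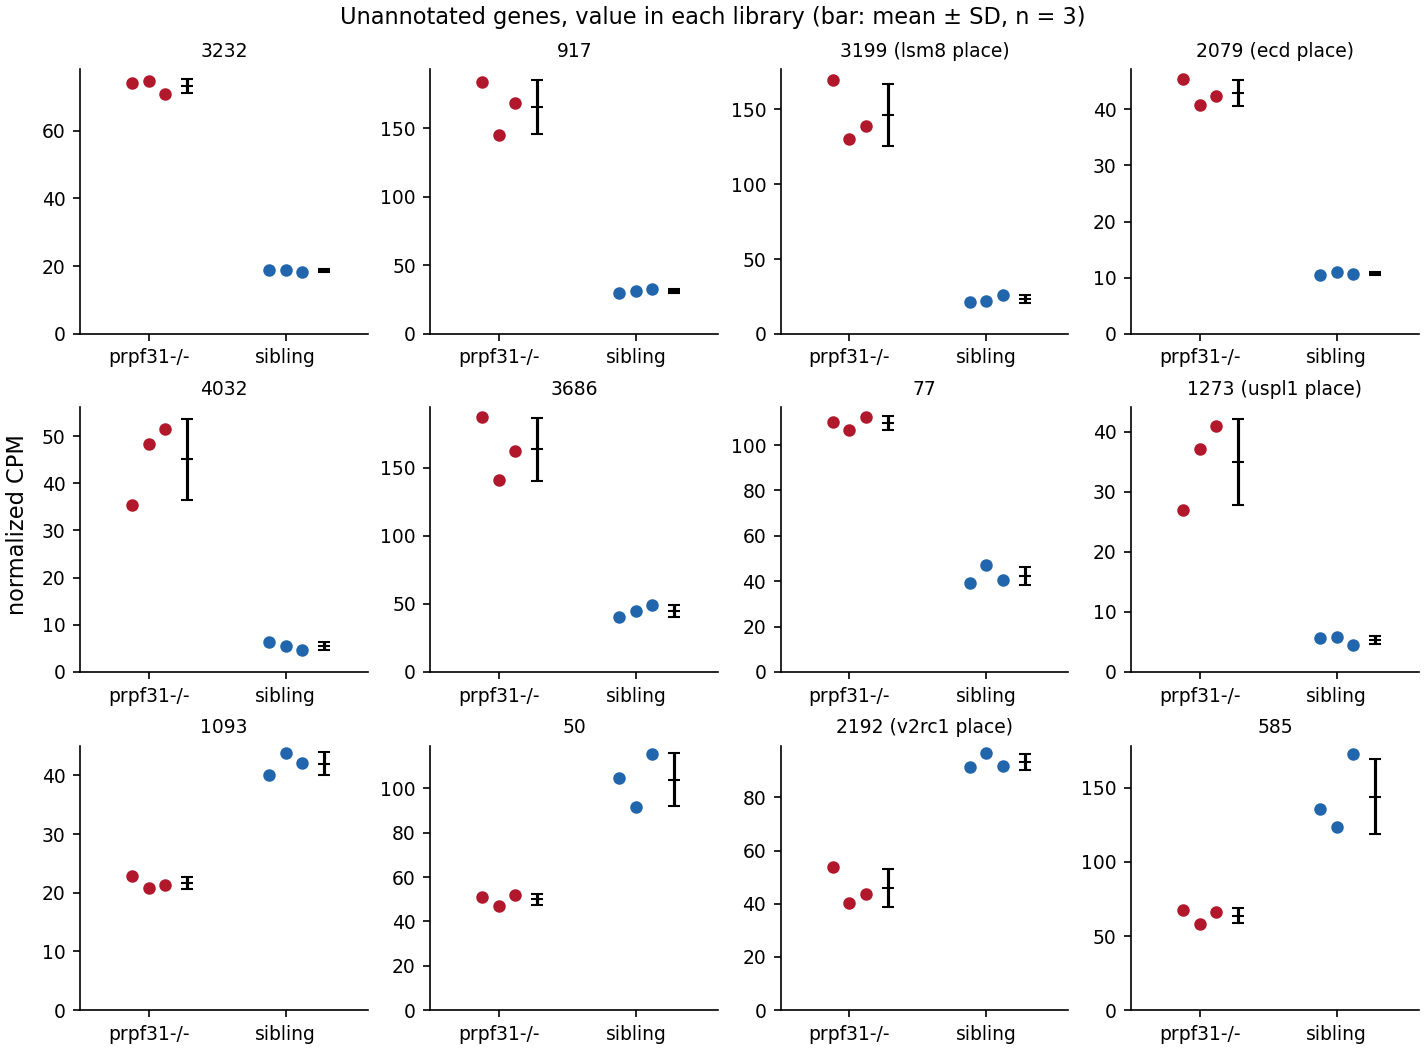
Normalized CPM of 12 unannotated genes, the 8 risers and 4 fallers with the smallest adjusted p among those reported, in each of the 6 libraries (points), with *prpf31*-/- left of siblings and the mean ± SD (n = 3) as a bar. In the first 8 panels every *prpf31*-/- library is above every sibling library, and in the last 4 every one is below. The choice by adjusted p favours genes whose groups lie apart.

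The falls were smaller than the rises. Unannotated gene 3604 (alternate contig of chromosome 6, 45934665 to 45939869) carries an RNA recognition motif and a CENP-S domain and lies at *cenps*, a kinetochore gene whose annotated copy had no count in any library. It had 8, 13 and 11 counts in *prpf31*-/-, against 62, 46 and 47 in siblings (log2 fold change -2.24, SE 0.313). Unannotated gene 2341, the contig version of *cbsa*, the gene of cystathionine beta-synthase, had 15, 9 and 13 counts in *prpf31*-/-, against 48, 22 and 62 in siblings (log2 fold change -1.79, SE 0.439). Its copy on chromosome 1 fell as well, by 1.16 on the log2 scale (adjusted p = 0.00961). Genes 3604 and 2341 passed the filter only through the sibling libraries, so no p is given for them. The call of gene 2341 was lost without any of 4 libraries: sibling replicates 1 and 3 and *prpf31*-/- replicates 2 and 3.

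Of the 6 largest falls, 3 were models without a domain on chromosome 4. Gene 927 (33054147 to 33055135) had 12, 60 and 36 counts in *prpf31*-/-, against 127, 81 and 151 in siblings (log2 fold change -1.73, SE 0.426, adjusted p = 0.0312). Gene 880 (49405640 to 49406676) had 60, 131 and 86 counts in *prpf31*-/-, against 282, 244 and 309 in siblings, at -1.58 (SE 0.231, adjusted p = 0.00243). Gene 889 (59492765 to 59494751) had 36, 10 and 29 counts in *prpf31*-/-, against 88, 63 and 78 in siblings, at -1.57 (SE 0.402). It passed the filter only through the sibling libraries, so no p is given for it. Gene 880 was called without each library in turn. Without *prpf31*-/- replicate 3, sibling replicate 1 and sibling replicate 3 in turn, gene 927 had adjusted p-values of 0.113, 0.105 and 0.108. Gene 889 lost its call without each of these libraries, and also without sibling replicate 2. Gene 1090, on chromosome 7 (53043521 to 53046812), had 108, 111 and 128 counts in *prpf31*-/-, against 322, 221 and 506 in siblings, at -1.57 (SE 0.267, adjusted p = 0.00547), and lay 12.5 kb from *cdh1*, the E-cadherin gene, at 0.22 (adjusted p = 0.0826).

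The remaining 6 of the 12 largest falls had log2 fold changes of -1.56 to -1.24. Among them gene 3174 is the contig version of *alg12*, a mannosyltransferase of protein glycosylation, with 24, 26 and 25 counts in *prpf31*-/-, against 77, 54 and 94 in siblings. The annotated *alg12* on chromosome 4 had no count in any library. Gene 162 (chromosome 12, 30876297 to 30886415) was the most abundant, a single exon of 10119 bases with no listed domain. It had 3229, 2353 and 3406 counts in *prpf31*-/-, against 6846, 8839 and 8485 in siblings (log2 fold change -1.40, SE 0.16, adjusted p = 0.000533), and its nearest annotated gene was 30.2 kb off. Genes 3295, 635 and 222 of this set each lost their call without 3 or more single libraries, as gene 635 did without sibling replicate 2 (adjusted p = 0.143), gene 3295 without sibling replicate 2 (adjusted p = 0.102) and gene 222 without sibling replicate 1 (adjusted p = 0.0946).

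Some abundant members outside these lists, picked after their values were seen, changed by less on the log2 scale but with narrow spread. Unannotated gene 917 (chromosome 4, 16295794 to 16313827, no domain listed) averaged 166 ± 19.6 CPM in *prpf31*-/- and 31.4 ± 1.59 CPM in siblings (SD, n = 3 each; log2 fold change 2.40, SE 0.1, adjusted p = 4.21e-07). Its nearest annotated gene, *si:dkeyp-38g8.5*, starts 1865 bases away on the opposite strand and had 0.75 (adjusted p = 0.169). Gene 917 also lay within 5 kb past the end of another annotated gene on its own strand, whose values are not given here. Gene 813 (chromosome 3, 11326272 to 11333716) averaged 229 ± 30.1 CPM in *prpf31*-/- and 447 ± 51.7 CPM in siblings (SD, n = 3 each; -0.97, SE 0.116, adjusted p = 0.000734). Gene 585, on chromosome 20, and gene 50, on chromosome 10, fell by 1.17 and 1.06 on the log2 scale, and both lay more than 28 kb from an annotated gene.

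Members were also put into 4 groups by domain. These groups were drawn up with results known and describe only these models, and the one with domains of the RNA processing machinery is given first. Of 17 members with such a domain (LSM, PRP4-like, Prp18, PRP38, cwf21, Mago nashi, Survival motor neuron or a domain named for splicing), all 17 were on alternate contigs and 15 were tested. Of these, 8 rose and 0 fell, or 53.3%, beside 5.58% of all genes that rose, and the median log2 fold change was 0.72. These counts depend on which domains were listed. The RNA recognition motif was left off the list. Of 36 tested members with that motif, 5 rose and 1, gene 3604, fell. That was 16.7% called, where 10.1% of all genes were called, with a median log2 fold change of 0.11. Gene 3199 is the contig version of *lsm8*, a subunit of the Lsm ring on U6 snRNA, with 3441, 2969 and 3239 counts in *prpf31*-/-, against 485, 483 and 579 in siblings (log2 fold change 2.67, SE 0.123, adjusted p = 7.28e-07). Gene 3686, also an LSM domain model, on a contig of chromosome 7 (19368701 to 19371929), had 3801, 3219 and 3788 counts in *prpf31*-/-, against 926, 1001 and 1091 in siblings (1.87, SE 0.115, adjusted p = 6.42e-06). A further LSM model, gene 3855, had 137, 112 and 119 counts in *prpf31*-/-, against 22, 54 and 51 in siblings, while gene 3530 had 134, 127 and 128 in *prpf31*-/- and 139, 136 and 140 in siblings. The Lsm models thus split into 3 that rose and 1 with nearly equal counts.

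The other risers of this group belonged to several steps of splicing. Genes 3422 and 3387 carry the PRP4-like domain with WD repeats of the U4/U6 protein Prpf4 and lie at or beside *prpf4* on contigs of chromosome 5. Gene 3422 had 231, 208 and 327 counts in *prpf31*-/-, against 42, 86 and 56 in siblings, and gene 3387 had 37, 32 and 29 in *prpf31*-/-, against 11, 13 and 10 in siblings, the call of gene 3387 being lost without any library except *prpf31*-/- replicate 2 (adjusted p = 0.078 without sibling replicate 1). Gene 3079 is the contig version of *srrm2*, a splicing coactivator of nuclear speckles, at 1.33 (SE 0.15, adjusted p = 0.000499). Gene 2076 carries a domain listed under the name of the survival motor neuron protein, and which gene of that domain family it is was not checked. It averaged 123 ± 14.8 CPM in *prpf31*-/- and 58.9 ± 1.47 CPM in siblings (SD, n = 3 each). Gene 3898 carries the domain of Mago nashi, a core protein of the exon junction complex, and averaged 41.4 ± 2.85 CPM in *prpf31*-/- and 25.2 ± 1.31 CPM in siblings (SD, n = 3 each). Gene 3866 is outside the domain list and was picked after its values were seen. It lies at the place of *snrnp200*, the helicase that unwinds U4/U6. It had 1884, 3093 and 2301 counts in *prpf31*-/-, against 619, 573 and 845 in siblings (1.85, SE 0.176, adjusted p = 0.000161). The annotated *snrnp200* had 1, 0 and 1 counts in *prpf31*-/- and 0 in each sibling library.

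One of the steadiest rises was in a ubiquitin ligase model. Gene 3232 on a contig of chromosome 4 (23101414 to 23110923) has the SWIB/MDM2 domain and a RING finger, the make-up of Mdm2. It had 1502, 1706 and 1647 counts in *prpf31*-/-, against 435, 421 and 404 in siblings (log2 fold change 1.97, SE 0.0773, adjusted p = 3.22e-07). The annotated *mdm2* on chromosome 4 (23125689 to 23136195) had 1020, 1154 and 1388 counts in *prpf31*-/-, against 288, 329 and 365 in siblings (1.87, SE 0.119, adjusted p = 7.86e-06). The rises at both places were alike in size.

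At 2 further places both the contig model and the annotated gene rose, although their spans overlapped too little to count as versions. Gene 2079 (alternate contig of chromosome 17, 20195343 to 20217454) lies at *ecd*, whose Drosophila counterpart takes part in splicing, and had 922, 931 and 987 counts in *prpf31*-/-, against 242, 245 and 237 in siblings. It rose by 1.995 on the log2 scale (SE 0.0925, adjusted p = 7.55e-07), and *ecd* by 3.17. The annotated *ecd* passed the filter only through the *prpf31*-/- libraries, so no p is given for it. Gene 1273 (alternate contig of chromosome 10, 36448381 to 36466789) lies at *uspl1*, a SUMO protease gene, and had 548, 846 and 953 counts in *prpf31*-/-, against 130, 130 and 100 in siblings, at 2.71 (SE 0.175, adjusted p = 8.73e-06), with 2.91 (adjusted p = 1.05e-07) for *uspl1*.

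Models with domains of mobile elements changed in both directions. Of 62 with a reverse transcriptase, integrase, transposase, DDE superfamily or retrotransposon domain, 61 were tested, and 5 rose and 6 fell, or 18.0%, where 10.1% of all genes were called, with a median log2 fold change of -0.01. Among the 17 tested with a reverse transcriptase domain, 4 rose and 3 fell. Gene 1093 (chromosome 7, 59493467 to 59502019), a reverse transcriptase model, had 463, 476 and 495 counts in *prpf31*-/-, against 919, 977 and 935 in siblings (-0.96, SE 0.0861, adjusted p = 0.000114). Copies of one element share sequence, so which copy a read came from is uncertain for all of them. C2H2 zinc finger models, a family that is very large on chromosome 4, were called in 7 of 68, 3 higher and 4 lower, or 10.3%, near that share of all genes. Of 23 tested models with a ribosomal protein domain, 1 rose and 0 fell.

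By position, the models on chromosomes and scaffolds were seldom part of an annotated gene's own span. If a model was listed as unannotated because it overlapped no annotated gene, this was set in advance. Only 2 overlapped one on the same strand and 1 on the other strand, 248 lay within 5 kb past the end of an annotated gene on its strand, 228 within 5 kb ahead of the start of one, 731 in none of these places, and 144 on scaffolds without an annotated gene. Called shares were 8.89% past a gene's end, 10.3% ahead of a start, 11.5% in none of these places and 3.70% on scaffolds without annotated genes. Protein-coding genes at like levels were called in 8.10%, 7.09%, 7.15% and 5.25%. Strand here is the listed one, and as the library kit keeps no strand, it cannot be checked for single-exon models. Of the models past a gene's end, 79.8% were spliced.

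The nearest annotated gene rarely went with the model. Of the 108 called members with an annotated gene on their sequence, the nearest one was tested for 76 and called for 10, or 13.2%, beside 6.91% for the members that were not called. The direction was the same in 4 and opposite in 6. Among the 6 were the overlapping genes 51 and 52, both set against *lpar1*, at 65.6 and 61.6 kb. Within 10 kb the direction was the same in 4 and opposite in 4. Across 771 pairs the log2 fold changes had a Spearman correlation of 0.19, and of 0.25 across 596 pairs within 10 kb, where both genes of a pair come from the same libraries. The 4 that went together included gene 77 (chromosome 10, 15998586 to 16004731), a single exon of 6146 bases listed on the strand opposite to *apbb1* and lying 672 bases past its end, *apbb1* being the gene of an adaptor that binds the amyloid precursor protein. Gene 77 had 2241, 2432 and 2623 counts in *prpf31*-/-, against 902, 1046 and 903 in siblings (log2 fold change 1.38, SE 0.0859, adjusted p = 7.04e-06), and *apbb1* had 1.70 (SE 0.232, adjusted p = 0.00157). Gene 77 also lay within 5 kb past the end of another annotated gene on its own strand, whose values are not given here. Gene 421 (chromosome 17, 51015351 to 51018843) lay 1271 bases past *aqr*, a helicase that binds introns in the spliceosome, with 1.73 (SE 0.286) for the model and 2.13 (SE 0.0962, adjusted p = 6.60e-07) for *aqr*. Against these, gene 1112 lay 476 bases ahead of the start of *csnk2a2a*, a casein kinase subunit, on the same strand and had -0.48 (SE 0.106) where *csnk2a2a* had 0.32 (SE 0.073).

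On alternate contigs the picture was another one. Read as coordinates of the chromosome in the contig's name, 2315 of the 2713 models (85.3%) overlapped an annotated gene on the same strand, and where both had a listed domain family it was the same in 846 of 926 pairs (91.4%). For the comparisons below a model and a gene were taken as 2 versions of one gene only if their overlap covered at least 50% of each span and their families did not conflict, which gave 1299 models at 1241 annotated genes. This pairing was set after the data were seen, and it rests on position and domain, not on sequence. Over these genes the contig version held a median of 74.9% of the reads of both versions. It held more than 90% in 474 genes and less than 10% in 66. If the models were built from these reads, a gene without contig reads would have no model and be left out. A high contig share would then be partly set in advance.

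Where both versions of a gene off chromosome 16 were called, they went the same way. How reads that fit both versions were handled is not given, so the 2 values of a pair may not be independent, and their agreement may be partly set in advance. Of the 86 called contig models with such a partner, the partner was tested for 62 and called for 21, and in 21 of 21 the direction was the same. With a partner called for 33.9% of called models and for 3.43% of the others, the Spearman correlation of log2 fold changes was 0.39 over 819 pairs. The *lsm8* pair gave 2.67 on the contig and 2.57 on the chromosome, *fbxo38*, an F-box gene, 1.57 and 1.25, and *srrm2* 1.33 and 1.34. Other pairs differed more in size, as *ddx23* at 0.94 and 2.06 and *neurl2* at 1.14 and 0.39. The annotated *lsm8*, with 7, 11 and 6 counts in siblings, passed the filter only through the *prpf31*-/- libraries. *saal1* and *cbsa* fell in both versions. Among paired models of chromosome 16, which are not members, both versions were called in 12 pairs, 3 in the same direction and 9 in opposite ones. The 21 pairs became 5 without *prpf31*-/- replicate 3 and 8 without any one sibling library.

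**Figure D4:**
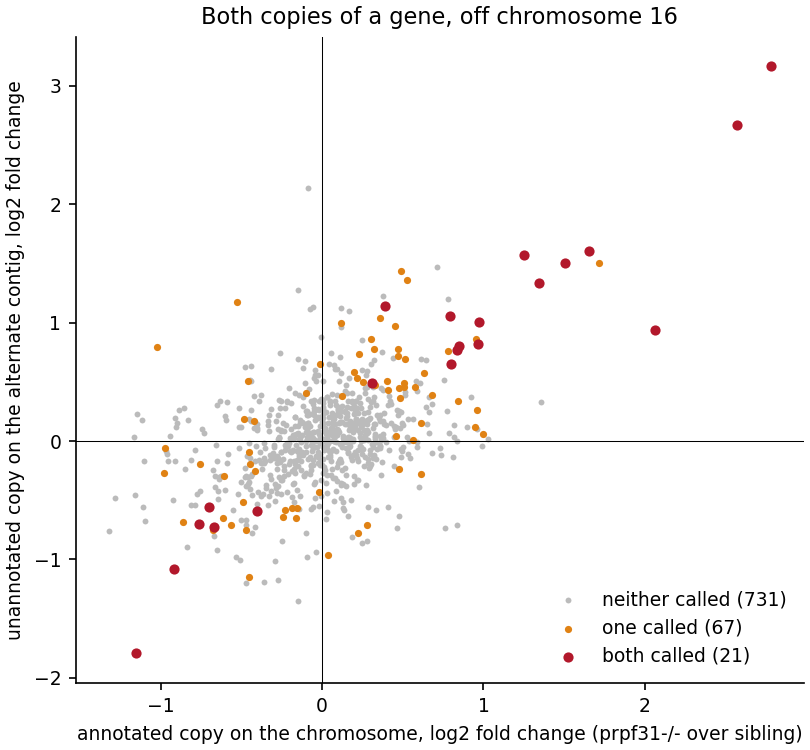
Log2 fold change of *prpf31*-/- over sibling for the unannotated version of a gene on an alternate contig (y axis) and for its annotated version on the chromosome (x axis), 819 pairs off chromosome 16. The 21 pairs called in both versions share the sign of their change.

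The division of reads between versions was tested directly, as the change in the ratio of contig to chromosome reads between genotypes, in 846 genes with a mean of at least 10 counts on each version. Over these, 2.01% were called. All 17 calls were on chromosome 16, in 17 of 46 genes, 9 with a larger and 8 with a smaller contig share in *prpf31*-/-, and off chromosome 16 there were 0 of 800 by edgeR, with 39 of 800 (4.88%) at an unadjusted p under 0.05. Without *prpf31*-/- replicate 1, sibling replicate 1 or sibling replicate 2 there was 1 call off chromosome 16. The mean contig share of *prpf31*-/- and siblings differed by a median of 2.75 percentage points off chromosome 16 and 14.2 points on it. For *lsm8* the contig share was 98.9%, 98.8% and 97.9% in *prpf31*-/-, against 98.6%, 97.8% and 99.0% in siblings. For *ddx23*, an RNA helicase of U5, the values overlapped, 32.4%, 49.6% and 30.2% in *prpf31*-/- and 53.1%, 46.2% and 67.0% in siblings (unadjusted p = 0.0284, adjusted p = 0.458).

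**Figure D5:**
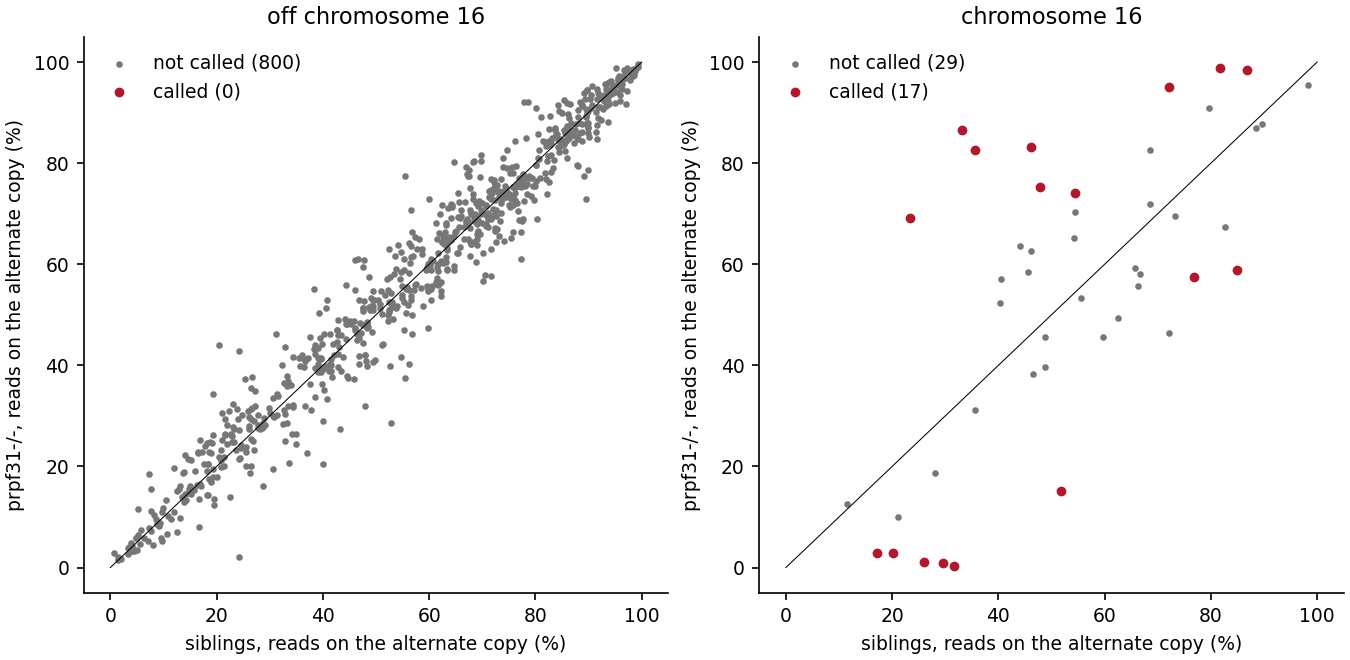
Mean share of a gene's reads on the alternate contig in *prpf31*-/- (y axis, percent) and siblings (x axis, percent), 800 genes off chromosome 16 on the left and 46 of chromosome 16 on the right, with the diagonal as a line. Called genes, 0 on the left and 17 on the right, are in red.

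The annotation lists only the chromosome version, so the reads of the contig versions stood outside it. The 1241 annotated genes were tested again with the reads of their contig versions added, in a fit where 10.8% of all genes were called. On the chromosome version alone 832 of them passed the filter, and 32 rose and 17 fell. With both versions added 1221 passed, and 77 rose and 42 fell, or 9.75% of those tested, against 5.89% on the chromosome version. All 37 genes called both ways kept their direction, but the sum includes the chromosome version's own reads, so this was largely set in advance. A further 82 were called only in the sum and 12 only on the chromosome version. For 25 of the 82 the chromosome version had been too low to test. Adding reads also raises a gene's level, with which the called share climbs, and its part in the added calls was not tested. The sum's 119 calls became 54 without *prpf31*-/- replicate 3, 52 without sibling replicate 1 and 65 without sibling replicate 2.

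Genes gained in this way are given here as examples, picked after their values were seen. *ppie*, a cyclophilin of the spliceosome, had 40, 60 and 137 chromosome counts in *prpf31*-/-, against 46, 5 and 21 in siblings (adjusted p = 0.11), and its contig version, gene 2029, had 811, 744 and 799 in *prpf31*-/-, against 233, 319 and 292 in siblings. Their sum rose by 1.52 on the log2 scale (SE 0.108, adjusted p = 1.77e-05). *ppil4*, another spliceosomal cyclophilin, had 1, 2 and 5 chromosome counts in *prpf31*-/- and 0, 2 and 0 in siblings, and its sum rose by 1.25 (SE 0.298, adjusted p = 0.0257). *prpf38a*, a late-joining tri-snRNP protein, passed in neither version alone, at 0.43 (adjusted p = 0.0736) on the contig and 0.59 (adjusted p = 0.103) on the chromosome, and at 0.47 (SE 0.103, adjusted p = 0.018) in the sum. *polr2l*, a subunit shared by the RNA polymerases, rose by 1.24 in the sum (SE 0.242, adjusted p = 0.0105).

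Other gained genes were of different kinds. *pcdh19*, a protocadherin, rose by 1.21 in the sum (SE 0.106, adjusted p = 9.25e-05), with 1.44 on the contig and 0.49 (adjusted p = 0.418) on the chromosome. *phf20b*, *bbs4* and *alg12* had no count on the chromosome version in any library, so that only their contig versions were measured: *phf20b*, a PHD finger gene, had 64, 89 and 114 counts in *prpf31*-/-, against 22, 28 and 32 in siblings, and *bbs4*, of the ciliary BBSome, had 54, 72 and 43 in *prpf31*-/-, against 13, 17 and 27 in siblings. *apoa1a* went the other way. Its contig version alone passed the threshold, and the sum had 0.24 (SE 0.0904, adjusted p = 0.124).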

How the data were processed

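RNA-seq of dissected tails was deposited by the authors as whole-number counts per gene and as FPKM per gene, 1 file of each per library. The submitters' processing notes name CASAVA 1.8 for base calls, HISAT2 2.0.5 for alignment, GRCz11 as the build and featureCounts 1.5.0-p3 for counting. The annotation release, the assembly of the unannotated models and the handling of reads with several places are not given in the sources used here. The deposited FPKM equal counts divided by length and by a total 0.935 to 1.05 times the library's counts. No label says that libraries came from separate clutches, so p-values measure only the spread between these libraries.

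For all genes together, the test was that of edgeR 4.0.16 under R 4.3.3 (filterByExpr, TMM, quasi-likelihood test, Benjamini-Hochberg over 21876 genes, 21809870 to 23789933 counts per library, biological coefficient of variation 15.5%), after the code was tested on simulated data. The change in a gene's contig share was an interaction term with a term for each library. Members, domain groups and marker lists were chosen with earlier results of these data known. Named members were the 12 largest changes in each direction with adjusted p under 0.05, groups apart in every library and mean CPM 1 or more, the 5 with the highest FPKM, and up to 4 with at least 10 counts in every library of one group and at most 1 in the other. After values were seen, the 40 with the smallest adjusted p and the called ones with an RNA processing domain were added. Alternatives used DESeq2 1.42.0 and limma 3.58.1. Sequences were not analysed here, since no genome of this build was at hand. One named member and its annotated copy are not reported here.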

Additional observations from a re-analysis of the deposited data

How the results depend on the processing

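The counts of members higher and lower were 177 and 108. They were 110 and 65 with the replicate number as a block, 113 and 53 by limma on log2(FPKM + 0.1) without a filter, 92 and 42 when the log2 fold change had to reach 1 in size, 54 and 50 on numbered chromosomes only, and 97 to 177 and 43 to 126 with each library left out. No effect shared by equal replicate numbers was seen, as their deviations correlated at -0.122, -0.152 and -0.104 over 13046 genes. Whether equal numbers mark a common clutch is not given, and these values cannot decide it. Other factors, other filters, DESeq2 and limma with a filter gave counts within 1.5 times of these. The members' excess over protein-coding genes of like level, 0.393 points, was 1.39 points with the block, 1.12 by DESeq2, -0.180 with a filter of 50 counts in 3 libraries, -0.00390 with bins of FPKM, 0.276 and 0.446 with 5 and 20 bins, and 0.82 to 1.31 with each library left out. The genotype difference in their share of counts, 0.194 points, was -0.0853 on numbered chromosomes only, -0.0248 without the 10 members with the most counts, and 0.0797 to 0.330 with each library left out. The median log2 fold change of members ranged over -0.0159 to 0.0344, the number changing with their nearest gene over 3 to 7, and the gap between single-exon and spliced models, 7.37 points, over 3.05 to 7.77, each with libraries left out. The 21 contig pairs were 36 with any overlap on the same strand, beside 2 in opposite directions, 32 by DESeq2, 8 with the block and 5 to 19 with each library left out, and these pairings and the sums were added after seeing the data. The 119 genes called after adding versions were 49 on the chromosome version alone and 52 to 116 with each library left out. Calls on the contig share numbered 0 to 1. Among the 64 named members, 0 of those past the threshold changed direction, and the direction of the others was not checked. Over all 64, 15 of 560 values under other settings and 32 of 384 with a library left out lost their call, and 1 gained it. What caused these shifts was not tested. The lowest 10% of members tested reached at most 1.02 CPM.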
